A study of Homo sapiens with 2 samples.

Results

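The thioredoxin system was followed in HaCaT cells, a spontaneously immortalised human skin keratinocyte line, through 10 genes: thioredoxins (TXN, TXN2), thioredoxin reductases (TXNRD1, TXNRD2), the thioredoxin-binding protein TXNIP and peroxiredoxins (PRDX1, PRDX2, PRDX3, PRDX5, PRDX6). They were taken by name, as array probes whose symbol column holds 1 of these genes and no other, among 18453 genes named alone by a probe. Cells were grown to passage 22 with 0.5 µg/ml arsenic trioxide (exposed cells) or to passage 22 without it (passage control cells, here control cells). Each group was 1 line of cells carried in culture, so exposure and drift of the line cannot be told apart. RNA came from 4 preparations per group, which the design text calls technical replicates, with 3 arrays each. The deposited values combine these 12 arrays into 1 intensity with 1 error per probe and group, so no spread between preparations was available and no test was computed here from the intensities.

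Thioredoxins are small proteins that reduce disulfides in other proteins through a pair of active-site cysteines, and thioredoxin reductases, which are selenoproteins, return them to the reduced state with NADPH. Peroxiredoxins reduce hydrogen peroxide, most of them with electrons from thioredoxin, and TXNIP binds reduced thioredoxin and limits its activity. Trivalent arsenic binds closely spaced thiols, and thioredoxin reductase is one of the enzymes it can inhibit. TXN, TXNRD1 and PRDX1 are known targets of NRF2, the transcription factor of the antioxidant response, which acts at antioxidant response elements.

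Promoter windows of 300 bases, from 250 before to 50 after each start (RefSeq, GRCh38.p14), were available for 7 of the 10 genes, with 12 windows in all. PRDX1, PRDX6 and TXN2 had none. The antioxidant response element core TGACNNNGC, read on both strands, was found in 2 of the 12 windows (16.7%), both of TXNRD1, against 13.3% of all 35116 windows, a share near the background. The carbohydrate response element written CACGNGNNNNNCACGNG, read on both strands, was found in 1 of the 12 windows, the one of TXNIP shown, against 0.057% of all windows. These matches are letters in a window and describe no binding. The windows below are those with a match (both of TXNRD1, 1 of 2 of TXNIP) and those of the genes whose probes moved most (the 1 of TXN, 1 of 2 of PRDX5), and capitals mark the matches. The other windows of TXNIP and PRDX5 held no match.
TXN, chr9:110256458-110256757, minus strand: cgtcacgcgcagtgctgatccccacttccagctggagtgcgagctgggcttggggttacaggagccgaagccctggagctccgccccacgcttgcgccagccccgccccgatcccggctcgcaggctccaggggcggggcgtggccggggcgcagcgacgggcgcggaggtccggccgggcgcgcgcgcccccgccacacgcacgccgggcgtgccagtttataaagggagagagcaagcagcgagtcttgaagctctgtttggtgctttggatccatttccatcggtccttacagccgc
PRDX5, chr11:64317871-64318170, plus strand: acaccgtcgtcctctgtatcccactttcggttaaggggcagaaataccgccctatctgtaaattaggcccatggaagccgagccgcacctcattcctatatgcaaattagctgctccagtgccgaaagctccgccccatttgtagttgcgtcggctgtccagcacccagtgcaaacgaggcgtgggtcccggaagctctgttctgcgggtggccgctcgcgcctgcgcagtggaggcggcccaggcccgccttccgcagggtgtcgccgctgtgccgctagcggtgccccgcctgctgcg
TXNRD1, chr12:104215529-104215828, plus strand: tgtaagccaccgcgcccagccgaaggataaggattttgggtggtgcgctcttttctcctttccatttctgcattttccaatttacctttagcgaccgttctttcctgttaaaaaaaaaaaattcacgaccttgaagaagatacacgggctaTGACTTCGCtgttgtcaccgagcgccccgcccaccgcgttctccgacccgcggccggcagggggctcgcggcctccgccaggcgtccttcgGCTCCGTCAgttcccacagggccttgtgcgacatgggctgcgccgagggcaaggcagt
TXNRD1, chr12:104286782-104287081, plus strand: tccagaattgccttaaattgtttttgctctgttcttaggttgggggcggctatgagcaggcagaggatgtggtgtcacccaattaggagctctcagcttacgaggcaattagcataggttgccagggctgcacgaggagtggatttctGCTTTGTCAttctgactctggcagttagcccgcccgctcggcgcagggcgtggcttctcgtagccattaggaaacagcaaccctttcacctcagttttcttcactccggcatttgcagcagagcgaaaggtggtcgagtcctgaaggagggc
TXNIP, chr1:145996530-145996829, minus strand: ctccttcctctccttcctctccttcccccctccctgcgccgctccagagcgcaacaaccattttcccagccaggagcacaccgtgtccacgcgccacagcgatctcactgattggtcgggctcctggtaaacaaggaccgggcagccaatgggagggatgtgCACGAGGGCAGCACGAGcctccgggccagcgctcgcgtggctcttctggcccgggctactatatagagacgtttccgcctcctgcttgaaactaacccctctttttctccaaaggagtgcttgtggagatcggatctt
The first TXNRD1 window holds TGACTTCGC on the strand shown, beginning at -99 from the start, and TGACGGAGC on the opposite strand with its leftmost base at -8. The second holds TGACAAAGC on the opposite strand, with its leftmost base at -102. In the TXNIP window it begins at -88.

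No gene of the thioredoxin system passed the test when each was represented by its brightest probe. PRDX5 lay lowest at 1.68-fold below control cells, and the other 5 genes detected in both groups lay within 1.20-fold of the median gene. TXN gave opposing pictures, because its brighter probe read nearly the same in both groups after centring while its dimmer probe read 1.78-fold higher in exposed cells. Intensities over the whole array were lower in exposed cells. Their median log2 ratio was -0.43 among the 9915 probes that both groups detected, and log2 ratios are given after subtraction of that median unless they are called uncentred. A probe counted as detected at a deposited detection p-value below 0.05. Calls rest on the p-value of the comparison in the authors' deposited table, whose test is not stated. With 1 line of cells per group and technical replicates alone, that p-value cannot cover spread between lines. A call needed a Benjamini-Hochberg adjusted value below 0.05, with the adjustment made here over 7682 genes.

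Of the 10 genes, 9 had a probe of their own, with 12 probes on 7 chromosomes. Of these, 6 were detected in both groups and PRDX3 in exposed cells alone. The probes of PRDX1 and TXNRD1 were detected in neither group, and PRDX6 was named only together with another gene. None of the 7 measured genes was called, against 5.69% of all genes tested. By unadjusted p-value below 0.05 in the authors' deposited table there was 1 (PRDX5), against 13.6% of all genes. Of the 6 genes detected in both groups 2 lay above the median gene and 4 below it, with a median log2 ratio of -0.13, beside 0.005 over all 7692 measured genes. Without centring all 6 lay below 0, with a median of -0.56.

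**Figure D1:**
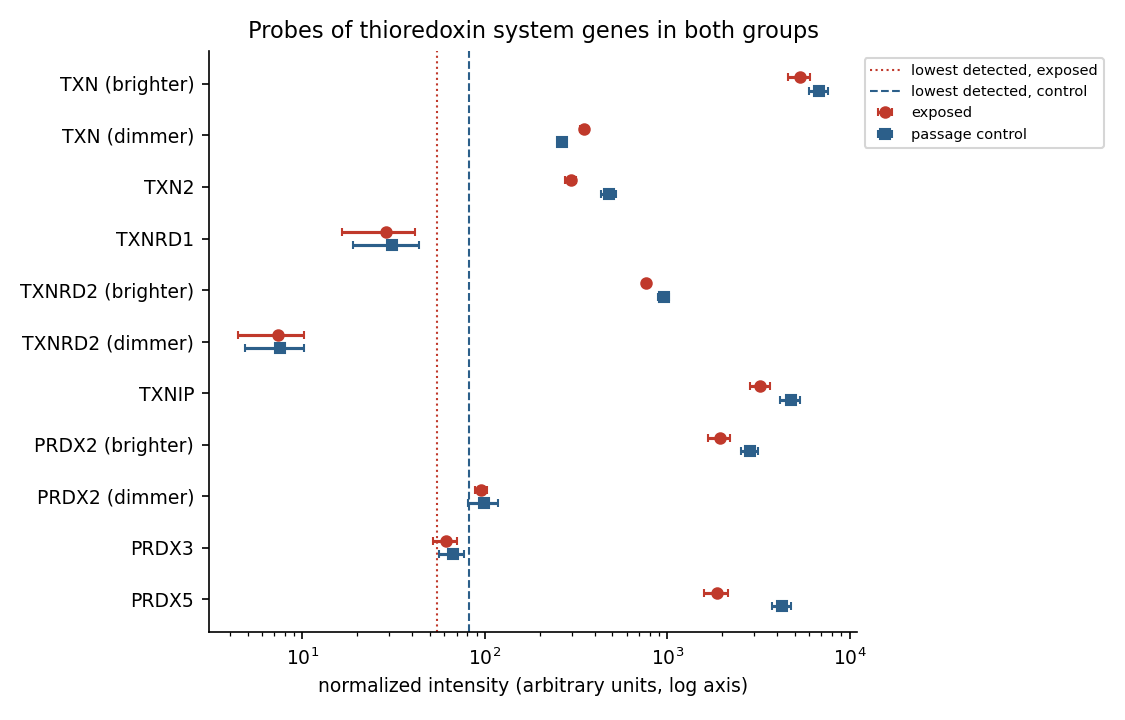
Normalized intensity (log axis) of each probe of the thioredoxin system genes, with circles for exposed and squares for control cells and bars for the deposited errors. The vertical lines give the lowest detected intensity in each group (54.4 and 81.7). The dimmer TXN probe is the one detected probe that reads higher in exposed cells, and the PRDX1 probe, below 0 in both groups, is not drawn.

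TXN encodes the cytosolic and nuclear thioredoxin, on chromosome 9. Its brighter probe read 5329 ± 750 (the authors' error) in exposed and 6784 ± 808 in control cells, so that the ranges of 1 error overlap. The log2 ratio was 0.08 ± 0.27, where the error combines the deposited errors of both groups and is not an SD, and it turned to -0.03 under quantile normalization and -0.35 uncentred. The authors' deposited table gave 0.10 with a p-value of 0.725.

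The dimmer TXN probe read 349 ± 15.3 in exposed cells and 264 ± 11.8 in control cells. Exposed cells were thus higher before any centring, and the ranges of 1 error lie apart. The centred log2 ratio was 0.84 ± 0.09 and the uncentred one 0.41, beside 0.81 in the authors' deposited table. When every probe of a single gene was taken as itself (8451 with a p-value), the deposited p-value of this probe adjusted by the Benjamini-Hochberg method was 9.83e-11, and it was the one probe of the 12 that passed, against 5.44% of all such probes called and 2.97% called higher. Of the 3288 genes within 2-fold of its mean intensity 1.25% had a ratio as high. Both probes list the same 2 transcripts, so the annotation does not separate them.

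The probes of TXN differed by 0.75 ± 0.28 on the log2 scale, or by 0.71 on the ratios of the authors' deposited table. Among 619 genes with 2 probes detected in both groups, TXN included, the median size of this difference was 0.19. Counting TXN itself, 16 genes (2.58%) differed by as much as TXN or more. In 52 of these genes 1 probe alone was called, in 5 both and in 562 neither. The dimmer probe had the smaller relative error, 4.39% and 4.47% in exposed and control cells, against 14.1% and 11.9% for the brighter one. Whether each probe measures TXN alone was not tested.

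**Figure D2:**
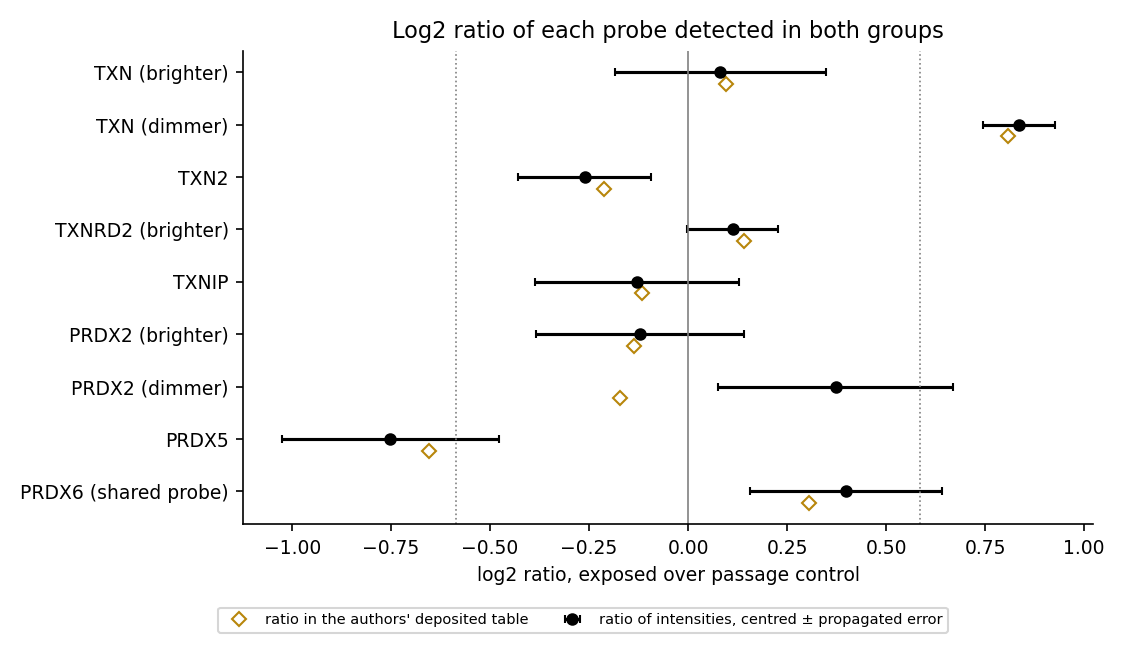
Log2 ratio of exposed over control cells for each probe detected in both groups and for the probe that PRDX6 shares. Filled circles give the centred ratio of intensities with its propagated error, open diamonds the ratio in the authors' deposited table, and dotted lines 1.5-fold. The dimmer TXN probe and PRDX5 lie past 1.5-fold in opposite directions on both measures, and the dimmer PRDX2 probe has opposite signs on the 2 measures.

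TXN2, the mitochondrial thioredoxin gene on chromosome 22, read 297 ± 20.9 in exposed and 479 ± 44.3 in control cells. Its log2 ratio was -0.26 ± 0.17, with 16.7% of measured genes lower, and -0.21 in the authors' deposited table with a p-value of 0.269. Uncentred it was -0.69, past 1.5-fold.

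Among the reductases, TXNRD1, the cytosolic enzyme on chromosome 12, could not be measured with the probe that names it alone. That probe, which lists 6 transcripts, read 28.9 ± 12.4 in exposed cells and 31.1 ± 12.3 in control cells, with detection p-values of 0.723 and 0.937. The gene whose promoter windows hold the antioxidant response element core therefore has no ratio here.

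TXNRD2, the mitochondrial reductase gene on chromosome 22, read 767 ± 32.2 in exposed and 956 ± 63.9 in control cells. These were among the smallest relative errors of the set, 4.20% and 6.69%. The log2 ratio was 0.11 ± 0.11, or 0.14 in the authors' deposited table with a p-value of 0.240, and -0.32 uncentred. A second probe read 7.33 and 7.51 and was detected in neither group.

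TXNIP, an arrestin-domain protein that binds thioredoxin and whose gene on chromosome 1 responds to glucose, read 3236 ± 406 in exposed and 4769 ± 608 in control cells. The log2 ratio was -0.13 ± 0.26, within its error, beside -0.12 in the authors' deposited table with a p-value of 0.621. TXNIP was thus readily detected in both groups. It lay below 0 on both measures, which are not independent of each other, and did not pass.

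Among the peroxiredoxins, PRDX5 on chromosome 11, whose product works in mitochondria, peroxisomes and the cytosol, differed most. It read 1873 ± 275 in exposed cells and 4248 ± 511 in control cells. The ranges of 1 error lie apart, in intensities that include the lower level of the whole array in exposed cells. The log2 ratio was -0.75 ± 0.27 (-1.18 uncentred), and it stayed past 1.5-fold in the authors' deposited table at -0.65. PRDX5 was the 1 gene of 7 past 1.5-fold, a size that 7.03% of all measured genes reached (3.54% upwards and 3.5% downwards). Of the 894 other genes within 2-fold of its mean intensity 2.01% lay as low or lower. The deposited p-value was 0.0116 and its Benjamini-Hochberg adjusted value 0.143, so PRDX5 was not called.

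PRDX2, a cytosolic peroxiredoxin gene on chromosome 19, read 1940 ± 278 in exposed and 2845 ± 320 in control cells at its brighter probe. That is a log2 ratio of -0.12 ± 0.26, with -0.14 in the authors' deposited table and a p-value of 0.579. A dimmer probe, near the limit of detection in control cells (detection p-value 0.0331), read 95.5 ± 7.47 and 99.4 ± 18.9. Its log2 ratio was 0.37 ± 0.30, but -0.17 in the authors' deposited table, so its direction depends on the measure. The probes of PRDX2 differed by 0.49 ± 0.40 from the intensities and by -0.03 in the authors' deposited table.

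PRDX3, the mitochondrial peroxiredoxin gene on chromosome 10, read 60.9 ± 9.08 in exposed cells and 66.5 ± 10.5 in control cells, where it was not detected (detection p-values 0.0297 and 0.296). Against the lowest detected intensity in control cells its log2 ratio was at least 0.01, a bound that carries no size, and the authors' deposited table gave 0.20 with a p-value of 0.810. PRDX1, a cytosolic peroxiredoxin gene on chromosome 1, had a probe that read -2.41 ± 2.83 and -0.78 ± 1.87. Both values are below 0 by less than their errors, so this probe was not above background in either group. PRDX1 therefore has no ratio, although the probe lists 6 transcripts, and the level of the gene cannot be read from it.

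PRDX6, a peroxiredoxin with phospholipase activity that is reduced by glutathione, was named by 1 probe together with a clone-based gene name, and the RefSeq accession listed for that probe is that of PRDX6. The probe read 2218 ± 258 in exposed and 2268 ± 275 in control cells. The log2 ratio was 0.40 ± 0.24, or -0.03 uncentred, and 0.31 in the authors' deposited table with a p-value of 0.189. It stayed outside the gene counts because the probe names more than 1 gene.

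By place in the cell, TXN2, PRDX5 and TXNRD2 are the genes with mitochondrial products that were measured in both groups. The PRDX5 product also works in peroxisomes and the cytosol. TXN2 and PRDX5 lay below the median gene and TXNRD2 above it (below 0 uncentred). Of the cytosolic genes TXN lay above at both probes (its brighter probe not uncentred or under quantile normalization) and PRDX2 on either side. After centring no direction was shared by the genes of either place, and TXNRD2 and the brighter TXN and PRDX2 probes lay within their errors. Uncentred, TXN2, PRDX5 and TXNRD2 all lay below 0, as did the median probe.

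**Figure D3:**
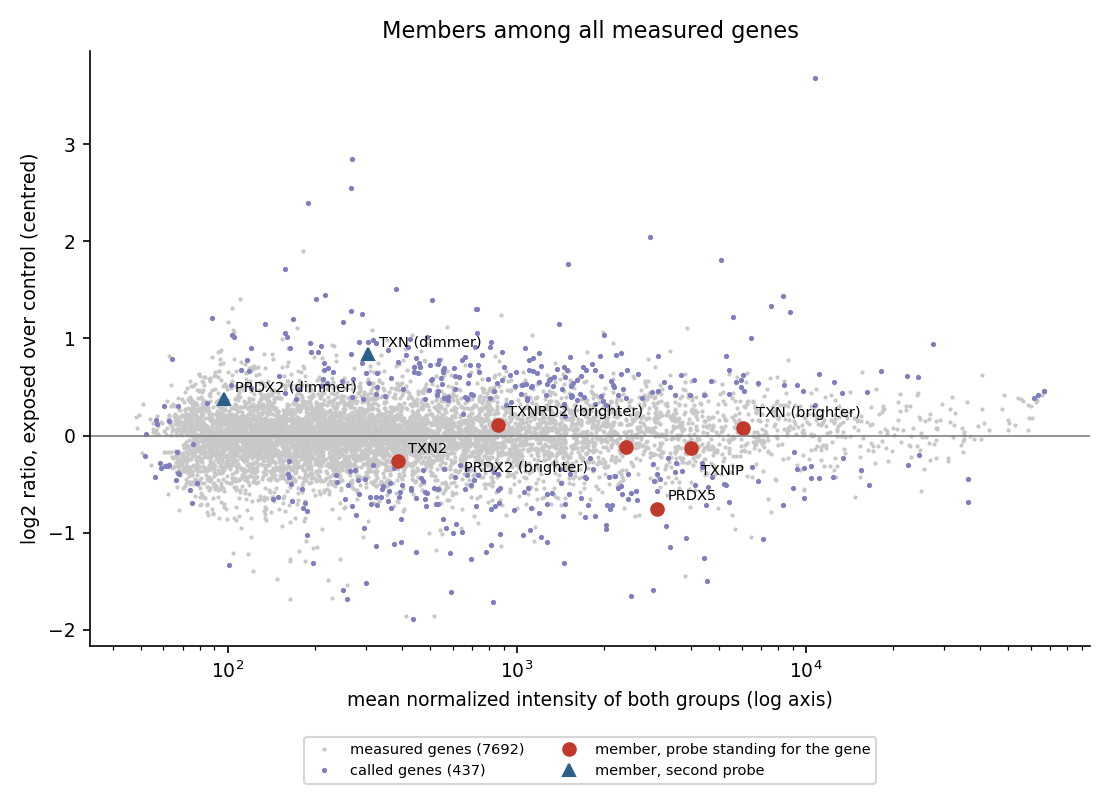
Centred log2 ratio of each measured gene against its mean intensity in both groups (log axis), with called genes darker. Circles mark the probe standing for a thioredoxin system gene and triangles a second probe. PRDX5 lies at the lower edge of genes of its brightness, the dimmer TXN probe at the upper edge, and the other circles lie within the bulk.

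The genes around the thioredoxin system were followed in 8 lists with 61 genes, of which 56 had a probe of their own and 32 were measured. They had a median log2 ratio of 0.09 (-0.34 uncentred), with 22 above 0 and 10 below (29 below uncentred). Of these 1 rose and none fell, against 3.12% and 2.56% of all genes tested. It was MAFG, which encodes a small MAF protein that pairs with NRF2 at antioxidant response elements. MAFG read 289 ± 18.5 in exposed and 300 ± 22.1 in control cells, so its rise is one relative to the median gene. Its log2 ratio was 0.38 ± 0.14, or -0.05 uncentred, and 0.37 in the authors' deposited table. The deposited p-value was 0.000416, which the Benjamini-Hochberg adjustment made here turned to 0.0113.

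Of the 4 measured genes of NRF2 and its partners 3 lay above 0, with a median of 0.22. Uncentred, all 4 lay below 0, with a median of -0.21. NFE2L2, which encodes NRF2 itself, had a log2 ratio of -0.21 ± 0.21, and the repressor gene KEAP1, at 18.7 and 19.3, was not detected. The repressor BACH1 and the small MAF gene MAFK had log2 ratios of 0.25 ± 0.16 and 0.20 ± 0.16 without passing.

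In the list of glutaredoxins and glutathione reductase, GSR, which keeps glutathione reduced with NADPH, read 452 ± 67.0 in exposed and 380 ± 40.7 in control cells. The log2 ratio of GSR was 0.68 ± 0.26, above 0 also uncentred at 0.25, and 0.47 in the authors' deposited table with a p-value of 0.188, so it did not pass. GLRX2 was the other of 2 measured genes there, at -0.14 ± 0.45. Among sestrins and genes of selenocysteine insertion all 4 measured genes lay above 0 (median 0.17), while uncentred 3 of them lay below 0 (median -0.26). SESN2, a stress-induced sestrin, read 560 ± 63.0 in exposed and 494 ± 37.9 in control cells. Its log2 ratio was 0.61 ± 0.20, or 0.18 uncentred, and 0.50 in the authors' deposited table. The deposited p-value was 0.0246 and its Benjamini-Hochberg adjusted value 0.241. GSR and SESN2 were the 2 of 32 measured genes of these lists past 1.5-fold, a size that 7.03% of all measured genes reached. Neither lay past 1.5-fold uncentred or in the authors' deposited table.

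Of 5 measured thioredoxin-related partners none passed (median 0.19). PRDX4, the endoplasmic reticulum peroxiredoxin gene, whose probe lists a further gene identifier, read 311 ± 29.1 and 346 ± 46.0, a log2 ratio of 0.27 ± 0.23. Sulfiredoxin (SRXN1), which restores overoxidised peroxiredoxins, had no probe of its own. None of 6 thioredoxin-dependent reductases passed (median 0.09), among them RRM2, a subunit of ribonucleotide reductase, at -0.13 ± 0.09. None of 6 enzymes of peroxide and superoxide passed (median -0.03), with catalase (CAT) at -0.17 ± 0.14, the superoxide dismutase SOD1 at 0.18 ± 0.18 and the lipid peroxidase GPX4 at 0.08 ± 0.20. Of 3 measured TXNIP relatives and regulators none passed (median 0.07), and ARRDC3, an arrestin-domain gene like TXNIP, had a log2 ratio of -0.26 ± 0.25. Neither of the 2 measured genes of signalling proteins tied to thioredoxin or TXNIP passed. Among them MAP3K5, the kinase ASK1 that thioredoxin inhibits, was not detected in exposed cells (37.4 against 105 in control cells). It was at least 1.44-fold lower against the lowest detected intensity, with a p-value of 0.341 in the authors' deposited table, and did not pass.

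**Figure D4:**
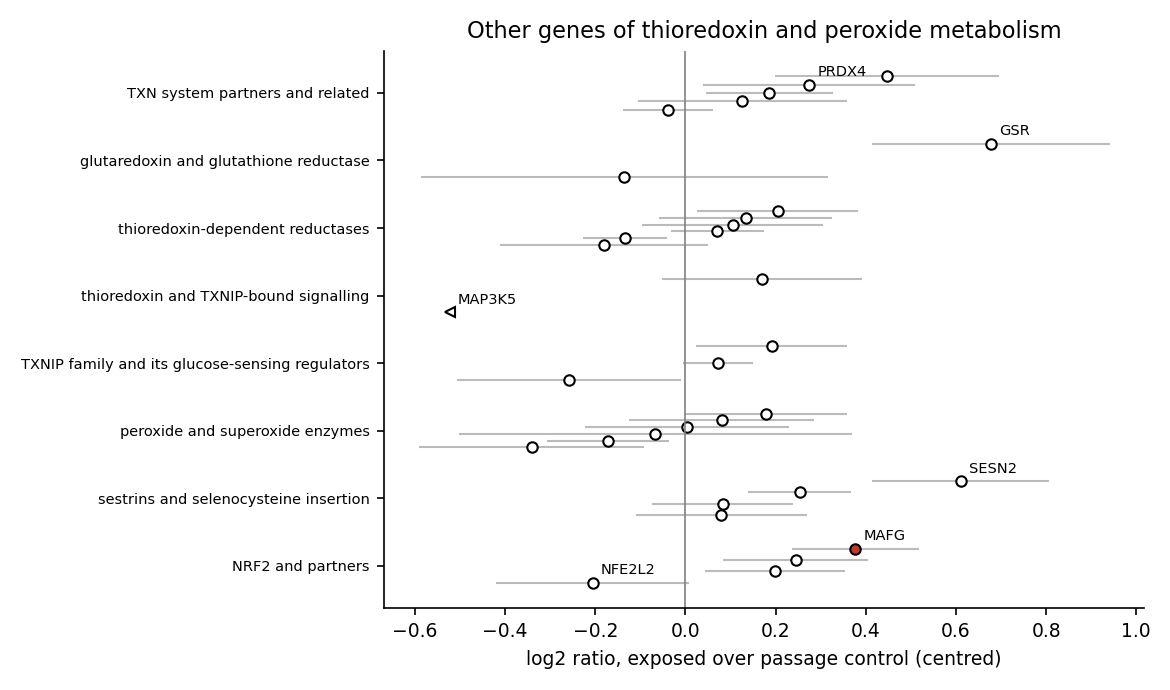
Centred log2 ratio of the 32 measured genes around the thioredoxin system, by list, with propagated errors as grey bars. The filled circle is MAFG, the one called gene, and the triangle marks MAP3K5, which has only a bound. GSR and SESN2 lie past 1.5-fold without being called.

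The cells carried keratinocyte markers in both groups, with 7 of 7 probed markers detected, KRT5, KRT6A and TP63 among them. Of markers of other cell types, 0 of 3 leukocyte, 1 of 4 melanocyte (PMEL), 1 of 3 endothelial (CDH5) and 4 of 6 fibroblast markers were detected in at least 1 group, and COL3A1 and DCN were not. Summed intensities were 497 in exposed and 788 in control cells for the fibroblast list, and 57291 and 74404 for the keratinocyte list. Both were lower in exposed cells, as were intensities over the whole array. The fibroblast sum was lower by a larger factor than the median probe, and the keratinocyte sum by a smaller one. Both groups were cells of a keratinocyte line, so these marker signals are not read as other cell types. Their bearing on the ratios above was not tested. Fewer transcripts per cell and fewer cells expressing a gene cannot be told apart in such RNA.

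**Figure D5:**
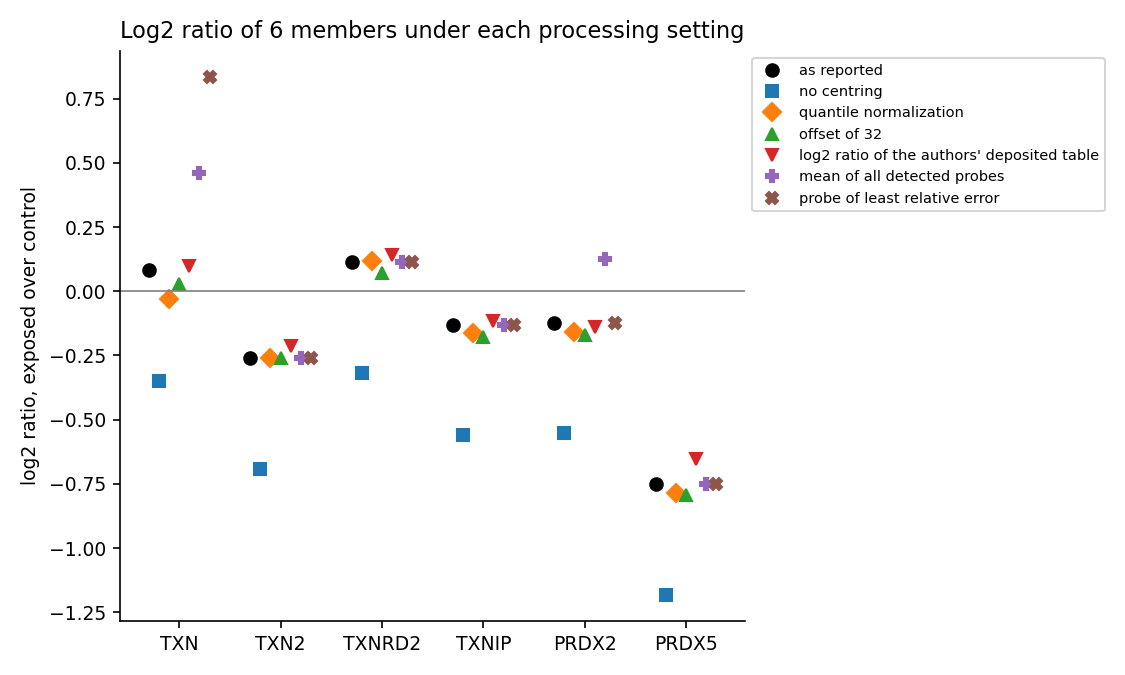
Log2 ratio of the 6 thioredoxin system genes detected in both groups under each processing setting, with the reported value in black. Values without centring lie lowest for every gene, PRDX5 stays at -0.65 or lower, and TXN runs from -0.35 to 0.84 with the choice of probe and centring.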

How the data were processed

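The authors deposited, per the file headers, a normalized intensity and an error in the same unit for each of 30968 probes in exposed (T) and untreated (UT) cells, a detection p-value per group, and a log2 ratio and p-value of the comparison for 14401 probes. Per the labels' protocols, amplified RNA was labelled with Cy5. The sources used here do not give the background correction, normalization, definition of the error, test or genome build. A second deposited set of intensities matched to within 1e-06. The deposited log2 ratio exceeded that of the deposited intensities by a median of 0.42. Its own median was 0.0003, so it is already close to centred. It describes the same 2 groups and is not an independent check of the centred ratio.

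A gene was represented by its brightest single-gene probe. Of 2 probes that name a member beside other genes, the one whose RefSeq accession is the member's (PRDX6) was described, by a rule set after the values were seen, and the other, which lists TXNRD1, is not reported here. Symbols were updated through RefSeq's GRCh38.p14 table for 19445 of 22935 probes. A probe detected in 1 group was given a bound against the lowest detected intensity in the other where the centred ratio lay on that side. The design foresaw the deposited p-values and sizes without a replicate test. All 10 members were named, and of the lists, called genes and up to 2 per list past 1.5-fold. KEAP1, NFE2L2, BACH1, MAFK, PRDX4, SRXN1, GLRX2, RRM2, CAT, SOD1, GPX4, ARRDC3 and MAP3K5 were added after their values were seen. Members and lists were chosen with earlier results of these data known. The alternatives were no centring, quantile normalization, an offset of 32, the deposited ratio, the mean of probes, other limits and a filter on dim genes. Scripts were tested on simulated data. The number of arrays limits the precision. Python 3.11.15 and pandas 2.3.3 were used.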

Additional observations from a re-analysis of the deposited data

Results flagged for a closer look

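Some probes name a gene of the thioredoxin system but did not stand for it in the gene-level comparison. In 3 cases their signal lay above the median probe in exposed cells by more than its propagated error. These 3 are all such probes described here that had a ratio. The share of all probes that lie as far above is not given, and the PRDX6 probe was picked by a rule set after the values were seen. The 3 probes are therefore not read as a group. The dimmer TXN probe had a log2 ratio of 0.84. The dimmer PRDX2 probe had a log2 ratio of 0.37, with the opposite sign in the authors' deposited table. The probe that PRDX6 shares with a clone-based gene name had a log2 ratio of 0.40. Without centring the TXN probe alone of these stayed above 0, at 0.41.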

How the results depend on the processing

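The median log2 ratio of the measured thioredoxin system genes moved from -0.12 to -0.56 without centring (over 6 genes, without PRDX3), which shifted the median of all genes by -0.43. It stayed within the median propagated error under the other 5 settings, with values up to 0.01. No gene was called at the main setting, with an adjusted p below 0.01 or among genes above the median intensity. With every single-gene probe taken as itself 1 was called (TXN), with the probe of least relative error 1 (TXN), and at an unadjusted p below 0.05 1 (PRDX5). Of all such probes 5.44% passed in the first case. Of all genes tested 5.69% passed in the second case and 13.6% in the third. The setting with the least relative error and the unadjusted limit were chosen after seeing the data. Past 1.5-fold lay 1 gene (PRDX5), 2 without centring (with TXN2), 2 with the probe of least relative error (with TXN) and 0 at 2-fold. The share of all genes past 1.5-fold is given for the main setting alone, at 7.03%. The other counts past a fold limit have no background beside them and are not read as a result about these genes. PRDX5 ranged from -1.18 to -0.65 over 6 alternatives. TXN turned below 0 under 2 of 6 (no centring and quantile normalization), TXNRD2 under 1 (no centring), and PRDX2 turned above 0 under 1 (the mean of its probes). PRDX3 had no value without centring. No replicate could be left out, because the deposited values hold 1 combined value per group. No paired analysis was possible because the columns carry no replicate numbers. Signal over background limits TXNRD1, PRDX1 and PRDX3.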
